A study of Mus musculus with 6 samples.

Results

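Peptidylarginine deiminases were followed across 6 arrays of mouse luminal uterine epithelium taken at 3.5 days post coitum (dpc). The 4 genes, Padi1, Padi2, Padi3 and Padi4, were chosen by gene symbol out of 28877 genes named on the array, after Padi1 had shown a large difference between the groups in an earlier look at these data. They were represented by 7 of the 45281 probes. The CKO group held 3 arrays (D, E and F) from mice with a conditional knockout of Alk3 (genotype Alk3flox/flox Pgrcre/+), and the other 3 (A, B and C) came from mice labelled Control, whose alleles the labels do not detail. Alk3, also called Bmpr1a, is a cell surface receptor that carries signals of the BMP family, and the floxed segment spans an exon for part of its extracellular domain. Cre was produced from the progesterone receptor gene, so the deletion was not limited by design to the epithelium. All mice shared a hybrid C57BL/6J and 129S5/SvEvBrd background and the same day of pregnancy, and the labels state neither the ages of the mice nor whether an array held RNA of 1 animal or of a pool. The p-values therefore set the group difference against the spread between samples within the groups, which may in part be technical.

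Peptidylarginine deiminases are calcium-dependent enzymes that convert arginine residues within proteins into citrulline, which removes a positive charge and can loosen protein structure or alter binding. Padi1 and Padi3 are best known from epidermis and hair follicle, where they act on filaggrin, keratins and trichohyalin. Padi2 is the most widely expressed member, and Padi4 is the nuclear, neutrophil-associated member that acts on histones. In the rodent uterus, deiminase activity has long been known to follow estrogen. The labels give no hormone treatment or hormone level, so the term estrogen-responsive describes what is known of the family and was not examined as such.

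Median raw signal was 79.7 to 87.6 over the 6 arrays, 16620 to 17536 probes per array were above background (detection p under 0.05), and each probe was read by a median of 39 to 42 beads. The number of arrays limits the precision. CKO array E stood apart, with a mean correlation of 0.936 with the other arrays, against 0.953 to 0.970 for the rest, so values without it are given where they moved by over 1.5 times or turned sign. Of the pan-epithelial markers 10 of 11 were above background on at least 3 arrays, and their summed level was 42199 to 55780 in CKO and 47198 to 52154 in Control. Epcam, an epithelial adhesion gene, was the 1 not above background on any array. Bmpr1a had a normalised log2 signal of 8.60 ± 0.31 in CKO and 9.19 ± 0.20 in Control (SD, n = 3 each) by its brighter probe. By this probe the groups did not overlap, with CKO lower, as for 5.01% of all genes tested, and the gene did not pass (limma adjusted p 0.976). By the other probe the difference was -0.51 and the groups overlapped. The positions of these probes relative to the deleted segment were not determined here, so they may not check the deletion.

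Padi1, represented by the single probe ILMN_2637742, was the brightly measured member and the one that separated the groups. Its raw signal was 1697, 1897 and 2150 on CKO arrays D, E and F, against 634, 994 and 176 on Control arrays A, B and C. Every CKO array was above every Control array, and the lowest CKO signal was 1.71 times the highest Control signal. The CKO arrays sat close together, their highest being 1.27 times their lowest, whereas the Control arrays were spread over 5.65 times. In bulk RNA, fewer cells of a type and less RNA per cell cannot be told apart.

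**Figure D1:**
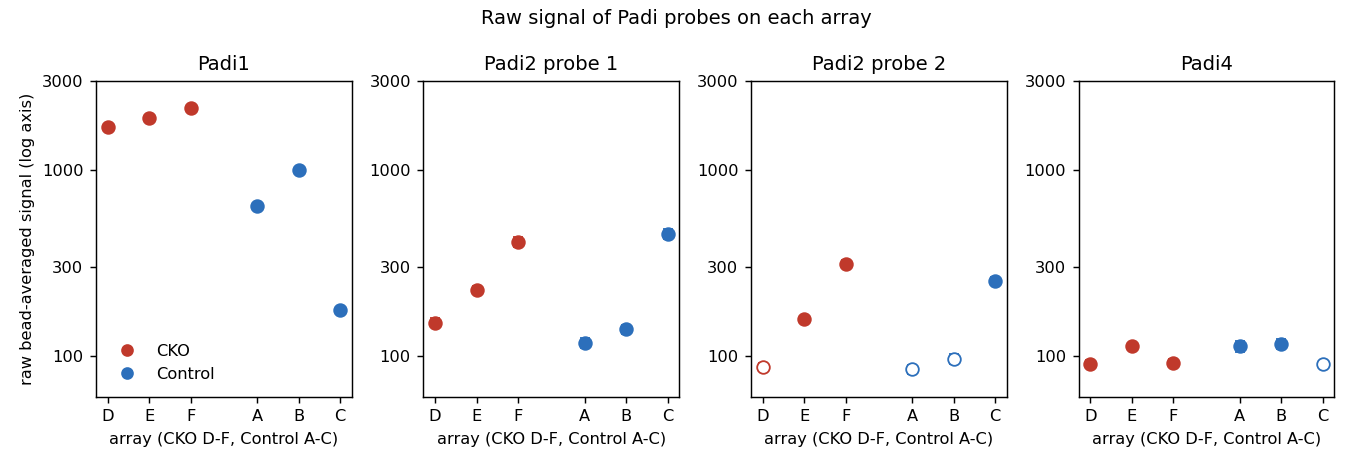
Raw bead-averaged signal (log axis) of Padi1, of the 2 Padi2 probes that passed the filter and of Padi4 on each array, CKO arrays D to F on the left (red) and Control arrays A to C on the right (blue). Bars are the standard error over beads, mostly smaller than the symbols, and open symbols are not above background. Padi1 lies between 1697 and 2150 in CKO and between 176 and 994 in Control, while Padi2 is high on 1 or more arrays of each group.

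The standard error over the 34 to 46 beads that carried the Padi1 probe was 2.48% to 4.43% of the signal on each array. It covers the reading of the beads of 1 array and not the preparation, labelling or hybridisation of the RNA. Control array C was the low sample: its Padi1 signal was 176 with a bead error of 6.65, yet it was still above background, as on all 6 arrays.

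After background correction and quantile normalisation, Padi1 had log2 signals of 10.79, 10.87 and 11.10 in CKO and of 9.02, 9.75 and 6.90 in Control. The means were 10.92 ± 0.16 in CKO and 8.56 ± 1.48 in Control (SD, n = 3 each). This is a difference of 2.36 (SE 0.68), or 5.15-fold on the normalised scale. Because the gene was chosen for this contrast, the difference is a description and supports no claim of an effect. In the fit over all 11940 genes its adjusted p was 0.976, so Padi1 did not pass.

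Among all genes tested, 5 had a larger difference in the same direction than Padi1. Of the 3 deiminase genes that passed the filter, 1 (Padi1) had groups that did not overlap, with CKO higher. Of all genes 5.64% did so, and 0.62% did so with a difference over 2-fold. A difference above 0 was seen for 2 of the 3 (Padi1 and Padi2), and for 48.3% of all genes. Since Padi1 was picked for its difference, nothing is read from that comparison. By limma's adjusted p, 0.0168% of all genes were higher in CKO and 0% lower (2 and 0 of 11940, against 324 and 239 at an unadjusted p under 0.05), and no deiminase gene was among them.

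**Figure D2:**
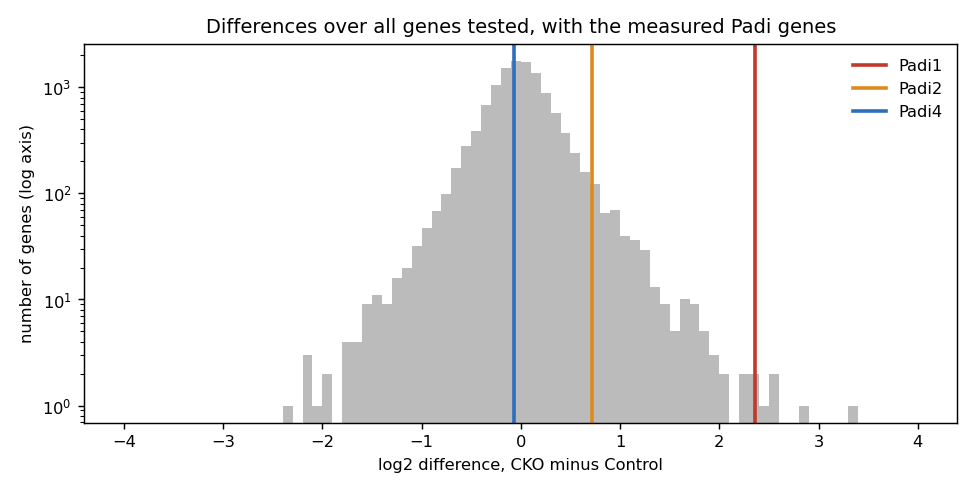
Number of genes (log axis) by log2 difference, CKO minus Control, for the 11940 genes tested, with vertical lines at Padi1 (2.36), Padi2 (0.72) and Padi4 (-0.07). Padi1 lies in the sparse upper tail and Padi4 near the median of all genes, -0.01.

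The size of the Padi1 difference depended on Control array C, while the groups stayed apart. Without array C the difference was 1.53, and without the other arrays in turn it was 2.27 to 2.96. The lowest CKO array stayed above the highest Control array by 0.94 to 1.77 on the log2 scale under each of the other background corrections and normalisations and with each array left out. Without CKO array E, which had the lowest mean correlation with the others over all genes, the difference was 2.40.

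Padi3, the other epidermal and hair follicle member, was measured by 1 probe, ILMN_2647300, that was not above background on any of the 6 arrays. Raw signals were 74.3, 72.7 and 69.5 on CKO arrays D to F and 68.6, 72.4 and 77.4 on Control arrays A to C. Both groups are thus bounded only by the background, and no fold is given. Padi3 transcripts were not detectable on these arrays at this sensitivity.

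Padi2, the broadly expressed member, was represented by 4 probes, of which ILMN_1237983 was above background on all 6 arrays. Raw signals of that probe were 150.5, 226 and 410 on CKO arrays D, E and F and 117, 139 and 452 on Control arrays A, B and C. The 2 brightest samples belonged to different groups, Control C and CKO F, and the groups overlapped. The normalised log2 means were 7.53 ± 0.94 in CKO and 6.82 ± 1.61 in Control (SD, n = 3 each), a difference of 0.72 (SE 0.85, 95% confidence interval -1.31 to 2.74).

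A further Padi2 probe, ILMN_3048899, gave the same picture at a lower brightness. It read 87.0, 158 and 312 on CKO arrays D, E and F and 84.5, 96.2 and 252 on Control arrays A, B and C. It was above background on E, F and C only, the same arrays that were brightest for the first probe. The log2 difference was 0.77, and over the 6 arrays both probes ran together (Pearson r 0.97, Spearman 0.89, a description over samples of both groups). The remaining 2 Padi2 probes, ILMN_3124783 and ILMN_1223381, lay between 72.5 and 92.4 and were not above background on any array. The files do not pair the probes with positions on the transcript, so these probes could not be assigned to a part of it.

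**Figure D3:**
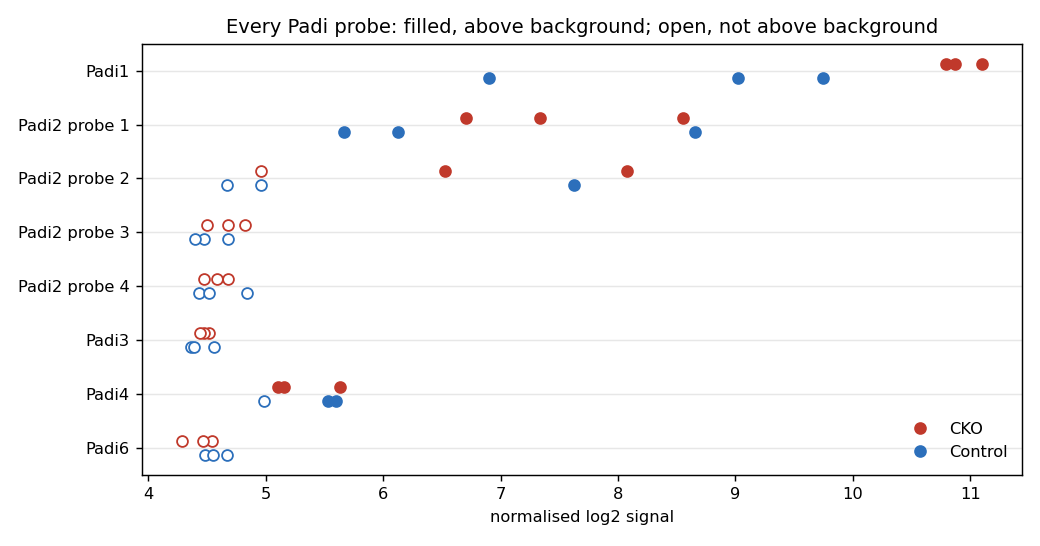
Normalised log2 signal of every Padi probe on every array, CKO (red) above Control (blue) in each row; filled symbols are above background and open ones are not. Padi1 runs from 10.79 to 11.10 in CKO and from 6.90 to 9.75 in Control, Padi2 groups overlap, and Padi3 and Padi6 are open on every array.

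The size of the Padi2 difference depended on single arrays of both groups. The difference of its main probe was 1.63 without Control array C, where the CKO and Control arrays no longer overlapped, and 0.14 without Control array A. Without B, D, E or F in turn it was 0.37, 1.13, 0.82 and 0.21. The dimmer probe was at 1.71 without C and at -0.0063 without CKO array F. Control C carried the lowest Padi1 signal of the series and the highest signal of the main Padi2 probe, while CKO F was highest for Padi1 and for the dimmer Padi2 probe. Over all 6 arrays the main probes of Padi1 and Padi2 had a Pearson r of -0.16 and a Spearman rho of 0.14, given as a description.

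Padi1 and Padi2 lie next to each other in the deiminase gene cluster of chromosome 4, where the RefSeq order of the GRCm38.p6 assembly is Padi6, Padi4, Padi3, Padi1 and Padi2. They are read from opposite strands, away from each other. For these neighbours the 250 bases before each RefSeq start are shown, 5′ to 3′ on the strand of the gene. Each GC box (GGGCGG or its complement CCGCCC) is in capitals. Any link between these sequences and the signals on the arrays was not tested. The Padi1 sequence is chr4:140845779-140846028 on the minus strand and the Padi2 sequence is chr4:140906110-140906359 on the plus strand, both from RefSeq GRCm38.p6.
Padi1: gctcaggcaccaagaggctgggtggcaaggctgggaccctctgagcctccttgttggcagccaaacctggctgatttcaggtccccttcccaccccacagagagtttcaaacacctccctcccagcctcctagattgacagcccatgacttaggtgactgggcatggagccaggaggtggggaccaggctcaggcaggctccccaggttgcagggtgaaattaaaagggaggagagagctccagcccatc
Padi2: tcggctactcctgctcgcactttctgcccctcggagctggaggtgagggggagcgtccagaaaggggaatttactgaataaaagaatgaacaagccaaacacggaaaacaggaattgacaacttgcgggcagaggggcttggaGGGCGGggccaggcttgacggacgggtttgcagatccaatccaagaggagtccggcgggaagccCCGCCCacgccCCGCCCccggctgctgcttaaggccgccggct
The Padi1 stretch held 0 CpG dinucleotides and no GC box, the Padi2 stretch 17 CpG dinucleotides and 3 GC boxes, at a similar G and C content of 60% and 61.6%. The median over 32851 promoter windows of this length was 6 CpG dinucleotides, and 32.7% of them held a GC box on either strand. The same windows of Padi3 and Padi4 held 3 CpG dinucleotides each, with 1 GC box for Padi3 and none for Padi4.

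None of the 4 windows held an estrogen response half-site (GGTCA or TGACC), which 35.2% of all windows did, nor the full estrogen response element (GGTCA, any 3 bases, then TGACC), which contains it (0.0639% of all windows). None held the GC-rich SMAD site GGCGCC (9.59% of all windows) or the short SMAD box GTCT (AGAC on the other strand; 82.9%). A TATA box (TATAAA or TTTATA) was present in the window of Padi4 alone, and in 12.4% of all windows. Absence of these letters from 250 bases says nothing of sites further away or of other forms of them.

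Padi4, the neutrophil-associated member that acts on histones, was dim in both groups, which overlapped. Its probe ILMN_2725484 read 90.4, 112 and 91.7 on CKO arrays D to F and 112, 116 and 90.4 on Control arrays A to C. It was above background on 3 CKO arrays and on 2 Control arrays, with array C just outside (detection p 0.078). The log2 means were 5.30 ± 0.29 in CKO and 5.37 ± 0.34 in Control (SD, n = 3 each), with a difference of -0.07 (SE 0.25, 95% confidence interval -0.66 to 0.52). The sign turned without A, B or D, at 0.0062, 0.041 and 0.026, and the difference was -0.27 without C and -0.24 without E. Near the background, changes of this gene are compressed, so a p that misses the threshold does not show equal levels.

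Above-background signal on all 6 arrays, the condition attached to the choice of members, was met by 2 of the 7 probes. Just inside was Padi2 probe ILMN_1237983, whose highest detection p was 0.00534 on Control A, and just outside was Padi4. A total of 4 probes passed the filter of at least 3 arrays and 3 probes were above background on none. Padi6, the oocyte member of the same gene cluster, read 75.3, 72.4 and 58.3 on CKO arrays D to F and 84.6, 78.3 and 77.3 on Control arrays A to C, not above background on any.

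Markers of some other cells that could supply deiminase RNA were measured on the same arrays. For macrophages, 5 of 9 markers passed the filter, with a summed level of 263.7 to 592.5 in CKO and 299.5 to 454 in Control. This sum was highest on CKO array F and lowest on CKO array D, and the part of such cells in the deiminase signals was not tested. For neutrophils, a known source of Padi4, 8 of 11 markers with a probe were not above background on any array, among them S100a8, S100a9 and Mpo. Csf3r was the only neutrophil marker that passed the filter, and its linear level over background was 11.3 to 17.5 in CKO and 7.4 to 26.3 in Control. For stratified squamous epithelium, a known source of Padi1 and Padi3, 6 of 8 markers (Krt5, Krt13, Krt6a, Dsg3, Krtdap and Sprr3) were not above background on any array. The other 2, Krt14 and Trp63, had a summed level of 20.3 to 71.9 in CKO and of 118.9 to 186.3 in Control. The 2 genes did not run together in Control. On arrays A, B and C the log2 signal of Krt14 was 6.79, 7.11 and 4.99, and that of Trp63 was 5.33, 5.21 and 7.54. Each was above background on 1 CKO array, and on 2 (Krt14) and 3 (Trp63) Control arrays. Each of these 2 genes had groups that overlapped, and the part of such cells in the Padi1 signal was not tested.

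Summed markers of luminal epithelium, of glands and of stroma overlapped between the groups. The summed level of 3 of 4 luminal markers was 6938 to 12877 in CKO and 5021 to 10847 in Control. That of 3 of 5 glandular markers was 377 to 4266 in CKO and 391 to 4724 in Control, highest on CKO array E and Control array A. That of 6 of 9 stroma markers was 837 to 5848 in CKO and 1913 to 2574 in Control. In CKO the stroma sum was lowest on array F and highest on array D. The markers that did not pass the filter were Calb1 (luminal), Foxa2 and Prss28 (glandular), and Pdgfra, Hand2 and Hoxa11 (stroma). Control array C, the sample with the least Padi1, also had the lowest luminal sum (5021) and the lowest Control glandular sum (391), and the part of either in its Padi1 signal was not tested.

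The genes whose profile over the 6 arrays was most like that of Padi1 were taken from 2213 genes with an SD of at least 0.5. In order of Pearson r they were Rbm20, a splicing regulator (0.993), Ung, which removes uracil from DNA (0.992), Chil5, a chitinase-like protein (0.976), and the transcription factor Sox9 (0.969). Next came Avp, the vasopressin precursor (0.968), the intermediate filament gene Gfap (0.967), the MAP kinase phosphatase Dusp4 (0.963) and the glycosyltransferase Pomgnt2 (0.960). Muc1, a surface mucin (0.959), and Osbpl1a, an oxysterol-binding protein (0.953), closed the list. These are the highest of 2213 values of r, each over 6 arrays that share the split into groups, and they are given as a description.

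Like Padi1, each of these 10 genes had its lowest signal on Control array C, which follows in part from their choice by r to Padi1. Avp, Gfap and Dusp4 were above background on 2 Control arrays only. Sox9 had log2 signals of 10.43, 10.78 and 10.21 on CKO arrays D to F and of 9.50, 9.71 and 7.47 on Control arrays A to C. Chil5 had 8.23, 8.93 and 9.29 in CKO and 7.44, 7.92 and 4.47 in Control, where array C was not above background. Further probes of Sox9 and Chil5 followed Padi1 as well, with r of 0.939 and 0.984. The 2 further Dusp4 probes differed from each other, with r to Padi1 of -0.136 and 0.796. Their group differences were -0.08 and 1.1, so the likeness of Dusp4 was not seen with every probe. For Osbpl1a the other probe had an r of 0.407.

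The most opposite profiles were those of Nudt10 (r -0.974), Cited2 (-0.969), Nudt11 (-0.968), Ttc23 (-0.959) and Uox (-0.954). Cited2, a transcriptional coregulator induced by progesterone, had log2 signals of 8.15, 8.24 and 8.06 in CKO and 8.58, 8.72 and 9.91 in Control, highest on array C. Nudt10 and Nudt11 encode near-identical diphosphoinositol polyphosphate phosphohydrolases, so their probes may share signal and the pair may count as 1 observation. Nudt10 was above background on 0 CKO arrays and 3 Control arrays, at least 2.26-fold lower in CKO by its main probe (adjusted p 0.976), while its other probe differed by 0.32.

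**Figure D4:**
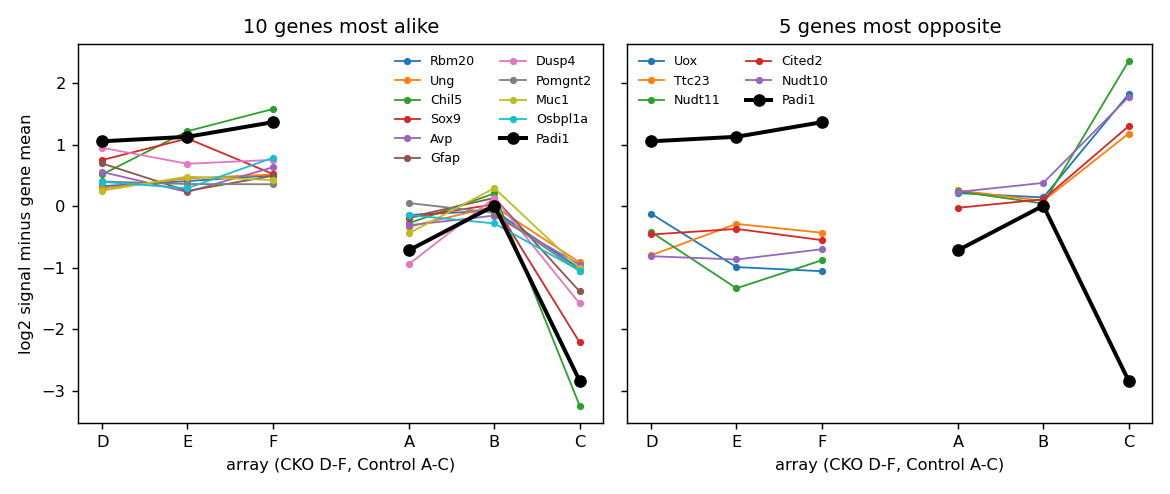
Log2 signal minus the mean of each gene on CKO arrays D to F and Control arrays A to C, for Padi1 (black) with the 10 genes most like it (left) and the 5 most opposite (right); lines join the points of 1 gene within a group and imply no order of samples. Control array C holds the lowest value of all genes on the left and the highest of all on the right.

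By the same rule, applied to Padi2 after its values had been seen, the nearest profiles included Smoc1 (Pearson r 0.936), Egr2 (0.905), Ocel1 (0.876) and Arhgdib (0.860). None of these genes separated the groups. Smoc1, a secreted calcium-binding protein, had log2 signals of 5.75, 6.97 and 7.52 on CKO arrays D to F and of 5.72, 5.10 and 7.88 on Control arrays A to C.

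Genes flanking the deiminase cluster were measured on both sides. The nearest measured gene before it, Rcc2, differed by 0.45 (SE 0.32) and was dim, above background on 3 arrays only. The nearest after it, Sdhb, a subunit of succinate dehydrogenase, differed by -0.17 (SE 0.21). The other 6 measured neighbours (Ubr4, Iffo2, Aldh4a1, Atp13a2, Crocc and Necap2) ranged from -0.75 to 0.17, with groups that overlapped for all 8. Those 6, without CKO array E, ranged from -0.20 to 0.29, and the sign of Iffo2 turned. The adjusted p of each by limma was 0.976 or more.

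Estrogen-induced genes were set beside Padi1 as a list. Of 26 genes 20 were measured, 15 were higher and 5 lower in CKO, and 0 passed in either direction by limma's adjusted p. The median log2 difference was 0.43, against -0.01 over all genes. Without CKO array E it was 0.21, with 12 of 17 measured members higher. Groups did not overlap for Aqp8 and Mcm2 (higher) and for Ltf (lower), against 5.64% and 5.01% of all genes. Aqp8 was dim, above background on 3 CKO arrays and on 2 Control arrays.

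Within this list the r to Padi1 differed between genes. The 4 genes with the smallest p are given first. They and Padi1 were picked for the same contrast, so their r partly reflects the split into groups and is a description. Aqp8, a water channel, differed by 1.17 (SE 0.32), Mcm2, a replication helicase subunit, by 0.54 (SE 0.20), and Muc1 by 0.77 (SE 0.33), with an r to Padi1 of 0.871, 0.887 and 0.959. Ltf, which encodes lactoferrin and is a classical estrogen-induced gene of the mouse uterus, differed by -1.13 (SE 0.41) with an r of -0.618. Its other probe differed by -0.47 with an r of 0.05. Sprr2f, a small proline-rich protein of the epithelium, had an r of 0.475 and overlapping groups. The receptor gene Esr1 differed by 0.42 (SE 0.34) and Pgr by -0.43 (SE 0.56), with groups that overlapped. With CKO array E left out, Esr1 differed by 0.72 and Pgr by 0.018, with its sign turned.

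Progesterone-induced genes had 16 of 18 members measured, 11 higher and 5 lower in CKO, 0 passing, with a median difference of 0.07 (0.18 without CKO array E). The 4 with the smallest p were Cited2 at -0.92 (SE 0.36), Ihh, the hedgehog ligand of the epithelium, at 1.20 (SE 0.48), Tsc22d3, a glucocorticoid-induced leucine zipper protein, at -0.67 (SE 0.31), and Klf9, a zinc finger factor, at 0.53 (SE 0.29). Without CKO array E, Ihh differed by 0.68 (its CKO value on E was 12.01, the highest of the 6 arrays), Tsc22d3 by -0.36 and Klf9 by 0.32. Groups did not overlap for Ihh (higher) and Cited2 (lower), against 5.64% and 5.01% of all genes.

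Known deiminase substrates had 13 of 23 members measured, 7 higher and 6 lower, 0 passing, with a median difference of 0.03. Without CKO array E the median was -0.0084, with 6 of 13 higher. Gfap differed by 0.96 (SE 0.40), Krt10, an epidermal keratin, by -0.57 (SE 0.30), Vim by 0.84 (SE 0.50) and E2f1, a cell cycle factor, by 0.26 (SE 0.22). Krt10 differed by -0.27 without CKO array E. Groups did not overlap for 1 of the 13, Gfap (higher), against 5.64% of all genes, and Gfap was not above background on 1 Control array. The transcripts say nothing of how much of each protein carries citrulline.

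Enzymes that compete for the same residue were measured too. Arginine methyltransferases and related enzymes had 9 of 11 members measured, 7 higher and 2 lower, 0 passing, with a median of 0.15 (0.065 without CKO array E). Prmt3 had log2 means of 9.21 ± 0.16 in CKO and 8.62 ± 0.12 in Control (SD, n = 3 each), a difference of 0.59 (SE 0.17). Prmt5, which makes symmetric dimethylarginine, differed by 0.58 (SE 0.20) by its main probe and by 0.05 to 0.16 by its other probes. Prmt6 differed by 0.43 (SE 0.25) and Prmt2 by -0.34 (SE 0.20), with groups that overlapped. Prmt6 differed by 0.27 without CKO array E. Groups did not overlap for 3 of the 9 (Prmt3, Prmt5 by its main probe, and Jmjd6, all higher), against 5.64% of all genes.

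Genes of arginine and citrulline metabolism had 6 of 13 members measured, 2 higher and 4 lower, 0 passing, with a median of -0.30 (-0.22 without CKO array E). Ddah2, which releases citrulline from methylated arginine, differed by -0.62 (SE 0.27), the arginases Arg2 and Arg1 by -0.42 (SE 0.19) and 1.14 (SE 0.67), and Asl, argininosuccinate lyase, by -0.58 (SE 0.40). Without CKO array E, Arg1 differed by 0.40, since its log2 signal was 7.82 on E and 5.61 and 5.59 on D and F, and Ddah2 differed by -0.41. Groups did not overlap for 1 of the 6, Arg2 (lower), against 5.01% of all genes.

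The settings of the processing moved the deiminase genes to different degrees. Weighting arrays by their quality gave Padi1 a difference of 1.79, Padi2 one of 1.83 and Padi4 one of -0.31, and without background correction Padi2 was at 0.42. The plot of differences by setting shows these beside the values with single arrays left out.

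**Figure D5:**
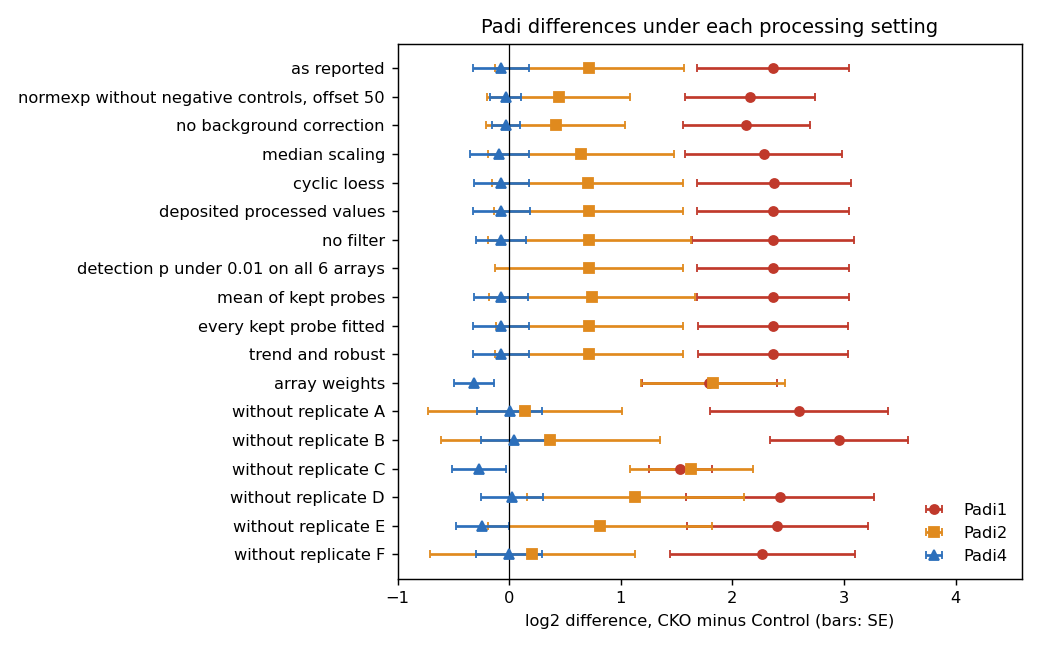
Log2 difference, CKO minus Control, with its SE for Padi1, Padi2 and Padi4 as reported and under each alternative. Padi1 stays between 1.53 and 2.96, Padi2 moves between 0.14 and 1.83, and Padi4 between -0.31 and 0.041; Padi4 has no value under the strictest filter.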

How the data were processed

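RNA of 6 samples was measured on 1 Illumina bead chip, chip positions A to C holding Control and D to F holding CKO, which leaves position and group inseparable: they cannot be told apart. The deposited scanner tables hold, per the file headers, each probe's bead-averaged intensity (linear, uncorrected), its bead standard error, its number of beads and a detection p-value. The authors' deposited processed intensity values, background-subtracted, linear and equal in distribution between arrays judging by their values (median 6.4 on each array), served as an alternative; the method behind them is not stated. Software was not given in the sources used here.

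Background was removed with neqc (limma 3.58.1, R 4.3.3), which applies normexp using negative controls deduced from detection p-values, adds an offset of 16, then normalises by quantiles and takes log2. The offset shrinks differences of dim genes. Probes with a detection p-value under 0.05 on at least 3 arrays were kept (17291). RefSeq names (GRCm38.p6) were found by accession for 29370 probes and by symbol or synonym for 6953; 8940 kept the file's name and 18 were left out. The brightest probe stood for its gene (11940 genes). The comparison of CKO with Control used limma (lmFit, then eBayes; two-sided), and p-values were adjusted by Benjamini-Hochberg over all genes at a threshold of 0.05. A summed level is the sum over a list's measured genes of the normalised linear signal minus the offset. A fold marked "at least" sets the mean of the group above background against the other group's mean of, per array, the probe's own value or the lowest value above background, whichever is higher.

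Members, lists and the rule for named genes were chosen with earlier results of these data known. The rule took every deiminase probe, Bmpr1a, Pgr, Esr1, the 10 most and 5 least similar profiles to Padi1 (skipping clone and predicted names), up to 4 measured genes on each side of the cluster, and the 4 members of each function list with the smallest p. Jmjd6, Sprr2f, the cell type markers and the Padi2 profiles were named outside it. Of the Padi2 profiles, 1 is not reported here. The fit was tested on simulated data. The alternatives were other background corrections, normalisations, filters, probe rules, variance models and array weights, and each array left out. Probe and protein sequences were not used here.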

Additional observations from a re-analysis of the deposited data

How the results depend on the processing

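The values of named genes without CKO array E were added after the data were seen. No paired analysis was made because the labels give no pairing of samples between the groups. Genes higher in CKO, 2 as reported (Cops8 and Gin1), numbered 1 with normexp without negative controls, 1 without background correction, 1 with cyclic loess, 1 with median scaling and 1 when starting from the deposited values. They numbered 0 over all 28877 genes unfiltered, 0 over the 8904 genes that passed the strict filter, 5 under array weights, and 0 to 1 when any 1 array was left out. Genes lower stayed at 0 under all 17 alternatives. Cops8 and Gin1 were each above background on 3 CKO arrays, but on 1 and 0 Control arrays. The strict filter asked for a detection p under 0.01 on all 6 arrays, so it left both out. For the other changes the cause was not tested. Padi1 stayed positive under all 17, from 1.79 (array weights) to 2.37 with all arrays, and from 1.53 (without Control C) to 2.96 with 1 array left out. Padi1 has 1 probe, so other filters, probe rules and variance models left its group means unchanged and could not move its difference. By its main probe Padi2 stayed positive, from 0.42 without background correction to 1.83 under array weights, and from 0.14 (without Control A) to 1.63 (without Control C) with 1 array left out; its dimmer probe was at -0.0063 without CKO F. Padi3 was not above background on any array, so no difference is given. Padi4 ran from -0.31 to -0.03 and, with arrays left out, from -0.27 to 0.041. It has no value under the strict filter. Bmpr1a stayed negative, from -0.73 to -0.43 over all settings, and never passed. Signal over background limits Padi3, Padi4 and the dimmer Padi2 probes.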
